A study of Homo sapiens with 24 samples.

Results

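The MHC class II presentation genes are the genes that build, load and regulate the surface molecules through which a cell shows peptides from its endosomes to CD4+ T cells. The list held 10 genes, which were HLA-DRA, HLA-DPA1, HLA-DPB1, HLA-DQA1, HLA-DMA, HLA-DMB, CD74, CIITA, IFI30 and CTSS. A gene was read from each transcript cluster, the probe set for one transcript locus, that the platform annotation pairs with that gene's symbol alone. This gave 15 of 33297 clusters, for 8 of the 10 genes. The array carries extra copies of HLA genes for other haplotypes, and 2 of the 15 clusters held the same values as another copy, so 13 distinct clusters were counted. The 3 clusters listed for HLA-DRA were also listed for HLA-DQA1, and the 1 cluster listed for CD74 was also listed for ROS1. Neither gene was therefore assigned a value of its own, and their shared clusters are described as such.

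The cells were L1236, an established line of Hodgkin lymphoma, a cancer whose tumour cells descend from B cells. In p50/RelA KD cells the siRNAs were directed at NFKB1, the gene of p105 and its product p50, for 3 days at 1 µM and at RELA for 2 days at 500 nM. In p52/RelB KD cells they were directed at NFKB2, the gene of p100 and its product p52, for 2 days at 500 nM and at RELB for 3 days at 1 µM. Cells were harvested 1 day afterwards. Each knockdown had its own control arm of control siRNA (control 1 for p50/RelA KD, control 2 for p52/RelB KD), and each of the 4 arms held 6 arrays, from 3 replicates of 2 siRNA sequences. All arms were cultures of 1 line. The study's methods call the 3 replicates biological, but the arrays of the 2 sequences share a replicate, so p-values over 6 arrays measure a spread that is in part technical. Because RNA of whole cultures was measured, fewer cells with a transcript and less transcript in each cell cannot be told apart.

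Class II molecules are pairs of an alpha and a beta chain. The chains assemble in the endoplasmic reticulum with CD74, the invariant chain, which blocks the groove and guides them to endosomes. There the protease cathepsin S, encoded by CTSS, trims CD74 to a remnant that HLA-DM exchanges for antigen peptide, while the thiol reductase encoded by IFI30 opens disulfide bonds in the antigens. Transcription depends on a short promoter module, the X and Y boxes, where the RFX complex and NF-Y assemble and recruit the coactivator CIITA. Hodgkin cells vary in how much class II they carry.

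The promoters of the HLA members are shown because this module is the sequence feature they are known to share. RefSeq promoters of assembly GRCh38.p14, each from 250 bases before to 50 bases after a transcription start, were listed for 7 of the 10 members. Capitals mark every CNAGNNA (letters of the X box) and ATTGG (the inverted CCAAT of the Y box) on the printed strand, within 70 bases that lie upstream of the start. The letters were chosen with these sequences in view.
HLA-DQA1 (chr6:32637292-32637361, plus strand): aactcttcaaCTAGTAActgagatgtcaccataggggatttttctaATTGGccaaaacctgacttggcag
HLA-DPB1 (chr6:33075846-33075915, plus strand): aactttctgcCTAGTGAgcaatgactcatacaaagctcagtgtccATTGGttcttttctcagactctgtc
HLA-DMA (chr6:32953153-32953222, minus strand): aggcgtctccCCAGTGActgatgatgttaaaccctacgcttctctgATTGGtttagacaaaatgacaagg
HLA-DMB (chr6:32941059-32941128, minus strand): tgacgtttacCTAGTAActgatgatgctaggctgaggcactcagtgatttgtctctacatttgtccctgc
HLA-DPA1 (chr6:33073691-33073760, minus strand): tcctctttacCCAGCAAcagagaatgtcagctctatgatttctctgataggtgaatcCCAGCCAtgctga

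The promoters of HLA-DQA1, HLA-DPB1 and HLA-DMA held CNAGNNA followed by ATTGG after a gap of 25 to 35 bases. The gap was 29 bases in HLA-DQA1, 28 in HLA-DPB1 and 29 in HLA-DMA. Counted on both strands, 1.73% of 35116 promoters held such a pair, 86.2% held CNAGNNA and 34.6% held ATTGG. The promoters of HLA-DMB, IFI30 and CD74 and both listed starts of HLA-DPA1 did not hold the pair, which says only that these letters at this spacing were not in the window. The NF-κB consensus motif was present in the promoter of CD74 and at the HLA-DPA1 start that is not shown, and in 11.3% of all promoters. A match is a description of the letters and not evidence of binding.

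The siRNA targets and the identity of the cells were checked first. NFKB1 and RELA mRNA stood at 26.5% and 38.1% of control 1 in p50/RelA KD cells, and NFKB2 and RELB mRNA at 39.4% and 82.0% of control 2 in p52/RelB KD cells. Of the subunits not targeted, NFKB1 rose by 0.15 on the log2 scale in p52/RelB KD cells and NFKB2 fell by 0.19 in p50/RelA KD cells (limma adjusted p = 0.0374 and 0.0457). The Hodgkin markers TNFRSF8 (CD30), IRF4, FSCN1, FUT4, EBI3, CCL22 and CCL17 averaged 8.62 or more on the log2 scale in every arm. TRAF1 averaged 6.52 and 6.67 in p50/RelA KD cells and control 1, and 6.92 and 7.16 in p52/RelB KD cells and control 2. All 8 markers of the list passed the filter on low values. Of these 8, CCL22, EBI3 and TRAF1 were called lower in p52/RelB KD cells and CCL22, EBI3 and CCL17 in p50/RelA KD cells. Of all clusters tested, 5.75% were called lower and 3.93% higher in p52/RelB KD cells, and 0.825% and 0.245% in p50/RelA KD cells. The mean log2 level of the list ranged from 9.72 to 9.85 in p52/RelB KD cells and from 9.93 to 10.10 in control 2, and from 9.54 to 9.64 in p50/RelA KD cells and from 9.73 to 9.94 in control 1. Of 7 measured B cell markers, PAX5, POU2AF1, CD22, CD79A and CD79B averaged 6.95 or more in every arm, up to 11.14 for PAX5, while MS4A1 (CD20) and CR2 averaged at most 4.88. Of the markers of monocytes, macrophages and dendritic cells, cells that also carry class II, LYZ, CD163, MRC1, CLEC9A and CD1C averaged below 6 in all arms, while CSF1R, CD68, ITGAM and ITGAX averaged 6.49 to 7.82. CD14 averaged 6.78 in p52/RelB KD cells and 6.74 in control 2, and 5.99 in p50/RelA KD cells and 6.04 in control 1. The mean log2 level of the 10 measured markers of that list ranged from 6.16 to 6.46 in p52/RelB KD cells and from 6.13 to 6.26 in control 2, and from 5.64 to 5.77 in p50/RelA KD cells and from 5.56 to 5.75 in control 1. None of them was called in either knockdown (0 of 4 tested in p50/RelA KD cells and 0 of 5 in p52/RelB KD cells). Of 9 markers of T and NK cells, 3 were tested in p50/RelA KD cells and 7 in p52/RelB KD cells, and none was called. CD4 averaged 9.70 and 9.73 in p50/RelA KD cells and control 1, and 8.23 and 8.37 in p52/RelB KD cells and control 2. NKG7 averaged 7.71 to 8.21 and CD8A 6.87 to 7.62, while the others averaged at most 6.39. Of 5 tested B cell markers CD22 was called lower and PAX5 higher in p52/RelB KD cells. The part of these lists in the class II results was not tested. The p52/RelB KD array of sequence 2 in replicate 3 stood apart, with a mean correlation of 0.986 with the others of its arm, and values without it are given where they matter.

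In p52/RelB KD cells the class II genes stood lower than in control 2, from HLA-DQA1 at 73.9% of control to HLA-DMB at 89.4% among those that passed the test. A cluster was called where limma gave a Benjamini-Hochberg adjusted p below 0.05 over all tested clusters and a difference of at least 10%. By this rule 9 of the 13 distinct clusters fell and 0 rose, which covers HLA-DQA1, HLA-DPB1, HLA-DMA, HLA-DMB and IFI30. Of all 16101 clusters tested, 5.75% were called lower and 3.93% higher. All 13 distinct clusters had a difference below 0, with a median of −0.25 on the log2 scale, beside a median of 0.02 over all clusters tested. The count was 10 of 13 without the array that stood apart, 6 of 13 when the sequences of a replicate were averaged, and 0 of 13 when the 3 arrays of sequence 2 were set alone against the 3 control arrays of that sequence, a fit in which only 4 clusters in all were called lower.

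No class II presentation gene passed the same test in p50/RelA KD cells. Of 13 distinct clusters 0 were called by limma, against a background of 0.825% called lower and 0.245% called higher among 14672 clusters. An unadjusted p below 0.05 was reached by 2 of the 13, IFI30 and CTSS, and by 10.5% of all clusters tested. The methods' t-test called 0 on the deposited values and 1, IFI30, on values adjusted for the replicate. The differences ranged from −0.20 to 0.04, with 7 below 0, 6 above and a median of −0.01, beside 0.00 over all clusters tested.

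**Figure D1:**
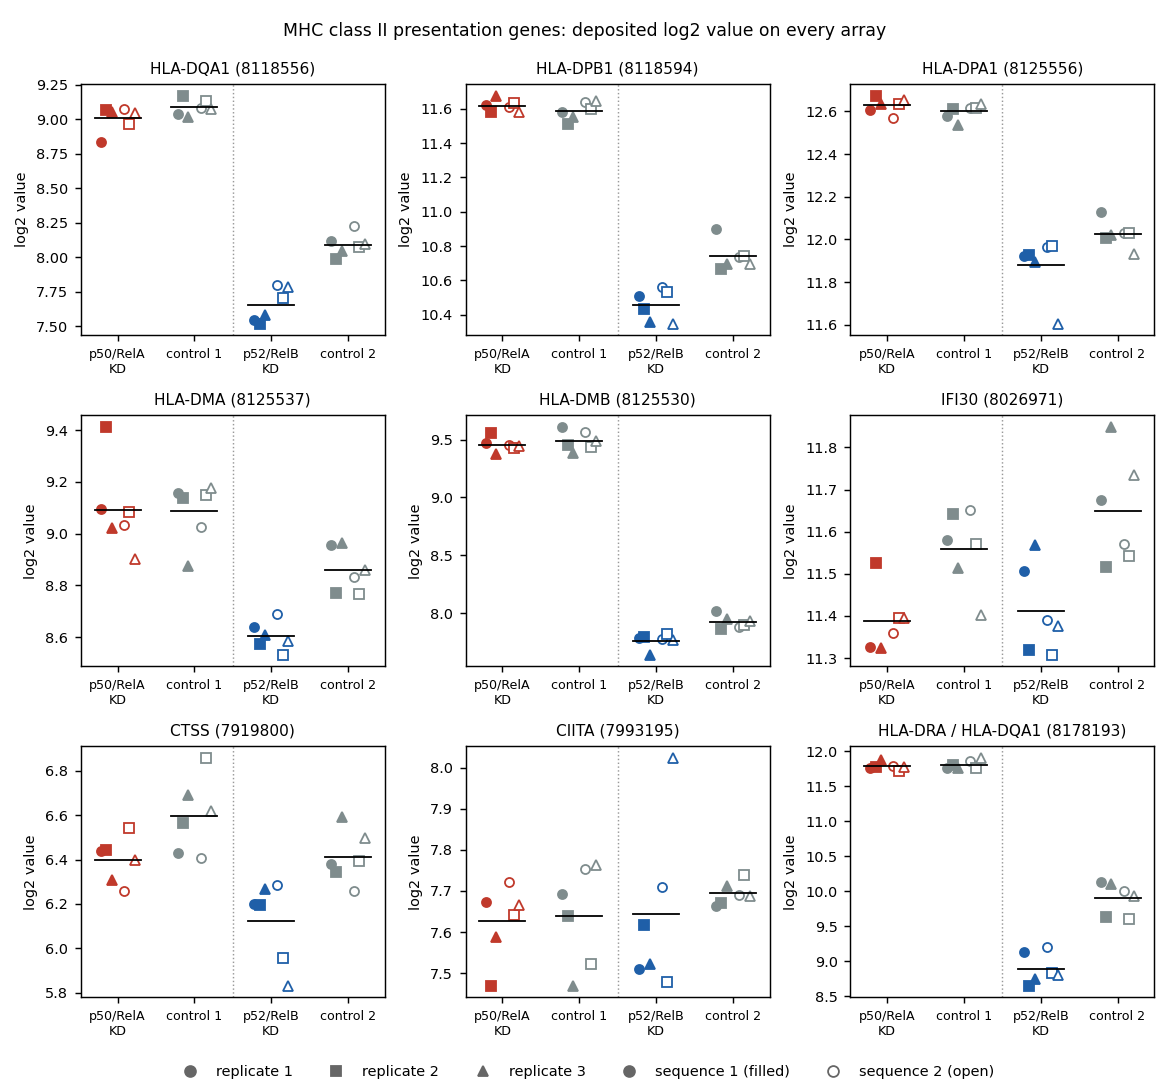
Deposited log2 values of 8 class II presentation genes, 1 cluster each, and of a cluster listed for both HLA-DRA and HLA-DQA1, on all 24 arrays; symbols mark the replicate, filled and open symbols the siRNA sequence, and black lines the mean of 6 arrays. The dotted line separates experiments that were taken as normalized apart, so levels are compared only within each side. For HLA-DQA1 the p52/RelB KD arrays reach at most 7.80 and the control 2 arrays at least 7.99.

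CIITA, the coactivator on which class II transcription depends, did not pass the test in either knockdown. Its log2 values in p52/RelB KD cells had a lowest of 7.48, a median of 7.57 and a highest of 8.02, against 7.66, 7.69 and 7.74 in control 2. The highest of all 12 arrays and the lowest were both knockdown arrays. The difference was −0.05 ± 0.08 (SE, n = 6 arrays a group), with a 95% confidence interval of −0.22 to 0.12 and a limma adjusted p of 0.739. Without the array that stood apart, which held the highest CIITA value, the difference was −0.13 (limma adjusted p = 0.0503). With sequence 1 the effect was −0.14 and with sequence 2 it was 0.04. CIITA ranged from 7.47 to 7.72 in p50/RelA KD cells, against 7.47 to 7.76 in control 1, a difference of −0.01 ± 0.05 (limma adjusted p = 0.972).

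Among the peptide-binding chains, HLA-DQA1, the alpha chain of HLA-DQ, had the lowest ratio to control of the single-gene clusters. Its cluster 8118556 measured 7.52, 7.64 and 7.80 (lowest, median and highest) in p52/RelB KD cells, against 7.99, 8.08 and 8.23 in control 2. The groups did not overlap, which 3.17% of all tested clusters also showed in this direction. The log2 difference was −0.44 ± 0.06 (SE, n = 6 a group; limma adjusted p = 0.000462). It was −0.50, −0.42 and −0.39 in replicates 1, 2 and 3. The same cluster measured 8.83, 9.05 and 9.08 in p50/RelA KD cells, against 9.02, 9.08 and 9.17 in control 1, and the groups overlapped at a difference of −0.08 ± 0.05 (limma adjusted p = 0.613).

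HLA-DPB1, the beta chain of HLA-DP, was read from 3 clusters with values of their own, all called lower in p52/RelB KD cells. Cluster 8118594 measured 10.35, 10.47 and 10.56 in p52/RelB KD cells, against 10.67, 10.72 and 10.90 in control 2. Every knockdown array lay below every control array for this cluster and for 8179519, while 8178220 overlapped by a margin at 10.32 in the highest knockdown array, against 10.31 in the lowest control array. The differences were −0.28, −0.29 and −0.30, with an SE of 0.04 each and limma adjusted p of 0.000949 to 0.00148. The 3 clusters differed by 0.03, −0.03 and 0.04 in p50/RelA KD cells and none was called.

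HLA-DPA1, the alpha chain that pairs with HLA-DPB1, moved less. Cluster 8125556 measured 11.60, 11.93 and 11.97 in p52/RelB KD cells, against 11.93, 12.02 and 12.13 in control 2. The groups overlapped, and the lowest knockdown array, sequence 2 in replicate 3, lay well below the next at 11.89. The difference was −0.14 ± 0.05 for both distinct clusters (limma adjusted p = 0.104 and 0.0812), so neither was called. Without that array both differences were −0.10 (limma adjusted p = 0.0460 and 0.0406), which is past the p threshold and short of the 10% difference. Both clusters differed by 0.03 in p50/RelA KD cells. The chains of one heterodimer were not tested against each other.

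The clusters with several symbols carried the larger differences. There were 13 distinct clusters whose every symbol was an HLA class II gene, and a fit over clusters with any symbol, added after the data were seen, gave them adjusted p-values. By that fit 12 of the 13 were called lower in p52/RelB KD cells, where 6% of 17562 clusters with any symbol were. The limma fit called 0 of 13 in p50/RelA KD cells (0 at an unadjusted p below 0.05), against 0.876% of 15989 called lower, and they ranged from −0.10 to 0.04. None of these clusters can be given to 1 gene.

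The 3 clusters listed for HLA-DRA, the alpha chain of HLA-DR, and for HLA-DQA1 fell furthest. Cluster 8178193 measured 8.64, 8.82 and 9.20 in p52/RelB KD cells, against 9.61, 9.97 and 10.13 in control 2. The groups lay apart, and the knockdown mean was 49.6% of the control mean. The difference was −1.01 ± 0.07 (limma adjusted p = 4.67e-06), with −0.91, −0.88 and −1.25 in replicates 1, 2 and 3 and −1.06 and −0.96 with sequences 1 and 2. The other two clusters differed by −0.91 and −0.93. Cluster 8178193 in p50/RelA KD cells measured 11.72, 11.78 and 11.88, against 11.76, 11.79 and 11.91 in control 1, and the 3 clusters differed by −0.03 to −0.01. The difference between the knockdown effects was −0.99 ± 0.08 for 8178193 (limma adjusted p = 7.09e-08).

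The 3 clusters shared among several HLA-DRB genes and HLA-DQB1 differed by −0.44 to −0.46 in p52/RelB KD cells, at limma adjusted p of 0.000326 to 0.000374. That shared by HLA-DRB1 and HLA-DQB1 alone differed by −0.29 (limma adjusted p = 0.00469). The 3 distinct clusters shared by HLA-DQA2 and HLA-DQA1 differed by −0.65, −0.37 and −0.33 and were called. The 3 shared by HLA-DQB2 and HLA-DQB1 differed by −0.28, −0.16 and −0.15, and the one at −0.16 was the only cluster of the 13 that was not called. HLA-DRB5, a beta chain of HLA-DR with a cluster of its own, differed by −0.24 ± 0.05 in p52/RelB KD cells (limma adjusted p = 0.0102). Without the array that stood apart 12 of the 13 were again called lower, and with the arrays of sequence 2 alone 0 were.

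HLA-DMA and HLA-DMB, the chains of the peptide exchanger HLA-DM, were both called lower in p52/RelB KD cells. HLA-DMA cluster 8125537 measured 8.53, 8.60 and 8.69 in p52/RelB KD cells, against 8.77, 8.85 and 8.96 in control 2. Its groups did not overlap, and neither did those of the other HLA-DMA copy. The differences of the copies were −0.25 and −0.25, each ± 0.04 (limma adjusted p = 0.00114 and 0.00102). HLA-DMB cluster 8125530 measured 7.64, 7.78 and 7.82 in p52/RelB KD cells, against 7.86, 7.91 and 8.02 in control 2. Its groups lay apart by a small margin, and its copies differed by −0.16 ± 0.04 each (limma adjusted p = 0.0277 and 0.0240). The HLA-DMB calls did not survive leaving out any 1 replicate, at differences of −0.21 to −0.13.

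HLA-DMA varied most between arrays in p50/RelA KD cells. Cluster 8125537 ranged from 8.90 to 9.41 in p50/RelA KD cells, against 8.88 to 9.18 in control 1, with an SD of 0.17 and 0.12. The difference was 0.01 ± 0.07, with a 95% confidence interval of −0.14 to 0.15, and with sequence 1 it was 0.09 and with sequence 2 −0.08. HLA-DMB differed by −0.04 and −0.02 in its copies. HLA-DOA and HLA-DOB, the chains of HLA-DO that restrains HLA-DM, were not called in either knockdown, with differences of 0.07 and 0.11 for the HLA-DOA clusters and −0.17 and −0.16 for the HLA-DOB clusters in p52/RelB KD cells. HLA-DOB differed by −0.21 in both clusters in p50/RelA KD cells.

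The cluster shared by CD74 and ROS1 was called in neither knockdown. It measured 11.95, 12.17 and 12.25 in p52/RelB KD cells, against 11.98, 12.16 and 12.21 in control 2, and the arms overlapped almost wholly. The difference was 0.02 ± 0.04 (limma adjusted p = 0.837, any-symbol fit). The p50/RelA KD arrays measured 12.10, 12.15 and 12.17, against 12.20, 12.23 and 12.30 in control 1. There every knockdown array lay below every control array, as 0.736% of tested clusters with 1 symbol did, yet the difference of −0.10 ± 0.03 was below the 10% limit and its limma adjusted p was 0.174.

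IFI30, the endosomal thiol reductase, was called lower in p52/RelB KD cells. It measured 11.31, 11.38 and 11.57 in p52/RelB KD cells, against 11.52, 11.62 and 11.85 in control 2, and the groups overlapped. The difference was −0.24 ± 0.05 (limma adjusted p = 0.00646), and it was −0.18, −0.22 and −0.32 in replicates 1, 2 and 3. The call was lost without replicate 1, without replicate 2, with the sequences averaged, with sequence 2 alone and under the methods' t-test on deposited values, at adjusted p of 0.0595, 0.110, 0.0607, 0.385 and 0.0786. IFI30 measured 11.32, 11.38 and 11.53 in p50/RelA KD cells, against 11.40, 11.57 and 11.65 in control 1, also overlapping, a difference of −0.17 ± 0.04 (limma adjusted p = 0.0810). The effects differed by −0.07 ± 0.06 (limma adjusted p = 0.685).

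CTSS, whose product trims CD74, lay near the filter on low values. It measured 5.83, 6.20 and 6.28 in p52/RelB KD cells, against 6.26, 6.39 and 6.59 in control 2. The groups overlapped only at the edge, 6.28 in the highest knockdown array against 6.26 in the lowest control array. The difference was −0.29 ± 0.09 (limma adjusted p = 0.0509), and it spread from −0.08 in replicate 1 to −0.50 in replicate 3. Without the array that stood apart, which held the lowest value, it was −0.21 and passed the test (limma adjusted p = 0.0152). It also passed with sequence 1 alone, with the scan batch as the block and under the methods' t-test on replicate-adjusted values, at adjusted p of 0.0483, 0.0449 and 0.0497. CTSS measured 6.26, 6.42 and 6.54 in p50/RelA KD cells, against 6.41, 6.59 and 6.86 in control 1, a difference of −0.20 ± 0.06 (limma adjusted p = 0.157).

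**Figure D2:**
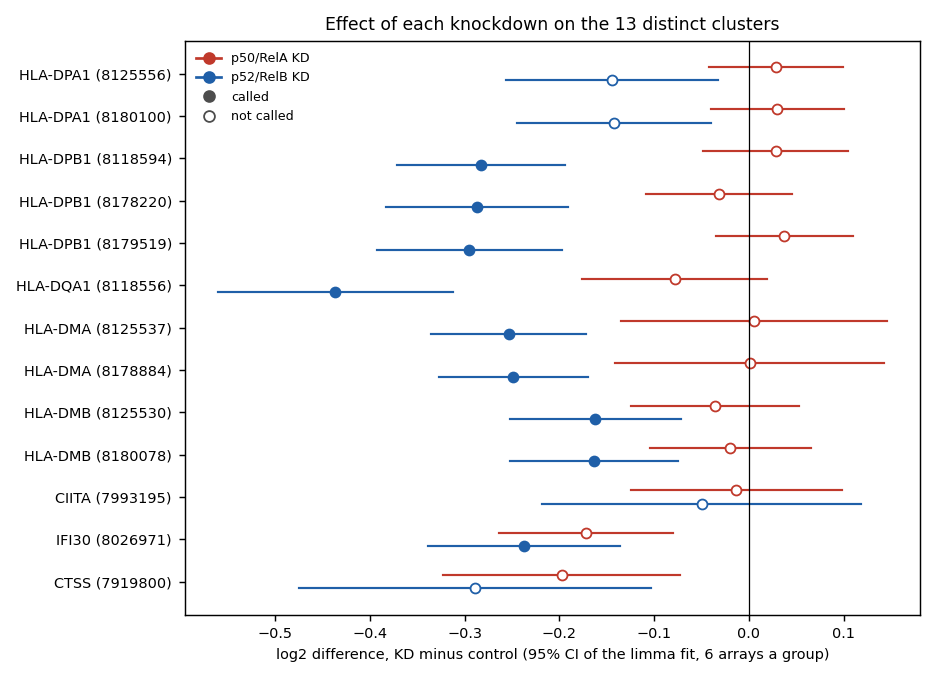
Log2 difference between knockdown and control for the 13 distinct clusters, with 95% confidence intervals from limma; filled points passed the test. Every p52/RelB KD point lies below 0, down to −0.44 for HLA-DQA1, while in p50/RelA KD cells only the intervals of IFI30 and CTSS lie wholly below 0 and no point is filled.

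Whether the knockdowns differed was tested directly, in one limma fit over the 24 arrays. Each knockdown lay in an experiment of its own, with its own controls and scan batches, and the experiments were taken as normalized apart. The deposited control values also differed, which was not tested. Cluster 8178193 averaged 9.90 in control 2 and 11.81 in control 1, and HLA-DMB cluster 8125530 averaged 7.92 in control 2 and 9.49 in control 1. A difference between the knockdowns therefore cannot be told apart from one between the experiments. The p52/RelB KD effect was lower than the p50/RelA KD effect for 4 of the 13 distinct clusters, against 2.45% of 14647 clusters. These were the 3 HLA-DPB1 clusters, at −0.31, −0.26 and −0.33 (limma adjusted p = 0.000814, 0.00753 and 0.000639), and HLA-DQA1, at −0.36 (limma adjusted p = 0.00612). The HLA-DMA clusters, at −0.26 and −0.25, missed the threshold (limma adjusted p = 0.0634 and 0.0761). HLA-DPA1, HLA-DMB, CIITA, IFI30 and CTSS were not called. The HLA-DQA1 call was lost when any 1 replicate was left out, and so was that of HLA-DPB1 cluster 8178220, so that 2 clusters were called in each of those fits. Of the 13 clusters with several class II symbols, 9 were called in the same test, against 2.59% of 15962 clusters.

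The effect in p52/RelB KD cells was also read by replicate and by sequence. Of 13 distinct clusters, 12 were lower in all 3 replicates, and 12 were lower with both sequences. CIITA was the exception in both counts. A test of whether the effect differed between replicates called 0 of 13 (limma; 0 at an unadjusted p below 0.05), against 0.00621% of all clusters, and in p50/RelA KD cells it also called 0 of 13, against 0% of all. Since this test and the contrast of sequences called almost nothing among all clusters, they do not show that the effects were alike. The replicate effects of CTSS were −0.08, −0.29 and −0.50, and those of HLA-DPA1 cluster 8125556 were −0.14, −0.07 and −0.23.

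Set against all 6 control arrays, 6 of 13 distinct clusters were called lower with sequence 1 (2.69% of all clusters) and 8 with sequence 2 (4.41%). The direct contrast of the knockdown arrays, sequence 1 minus sequence 2, called 0 of 13 in either knockdown (limma), against 0% of all clusters. The lowest p was that of HLA-DQA1 in p52/RelB KD cells, which averaged 0.21 ± 0.05 lower with sequence 1 than with sequence 2 (unadjusted p = 0.00179, limma adjusted p = 0.506). It was the only one of the 13 with an unadjusted p below 0.05, and in p50/RelA KD cells there were 0.

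**Figure D3:**
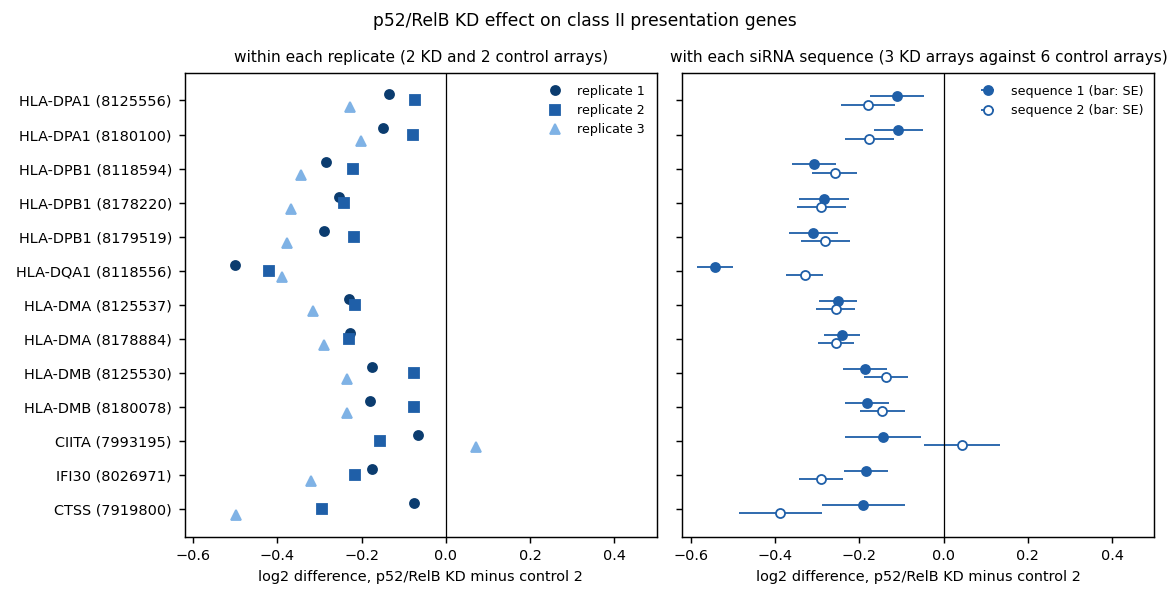
Log2 difference between p52/RelB KD and control 2 for the 13 distinct clusters, within each replicate (left) and for each siRNA sequence with its standard error (right). Only CIITA has points above 0, in replicate 3 and with sequence 2; for HLA-DQA1 the effect is −0.54 with sequence 1 and −0.33 with sequence 2.

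The factors that act on class II promoters or upstream of CIITA mostly did not pass the test. Of 21 factors 1 was called lower and 2 higher in p52/RelB KD cells, where 5.75% of all clusters were called lower and 3.93% higher, with a list median of −0.01. The RFX subunits RFX5, RFXANK and RFXAP differed by 0.02, 0.03 and −0.06 and the NF-Y subunits NFYB and NFYC by 0.01 and 0.07, none of them called. NFYA, the third NF-Y subunit, rose by 0.19 ± 0.04 (limma adjusted p = 0.00966), and IRF2, an interferon regulatory factor that can act on CIITA, rose by 0.18 ± 0.05 (limma adjusted p = 0.0395). PRDM1, the Blimp-1 repressor that is known to silence CIITA in plasma cells, averaged 7.27 in p52/RelB KD cells and 7.66 in control 2, a difference of −0.40 ± 0.05 (limma adjusted p = 0.000189).

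Of the same 21 factors 1 was called lower and 0 higher in p50/RelA KD cells, against 0.825% and 0.245% of all clusters. This was IRF1, an activator of CIITA under interferon gamma, which averaged 9.23 in p50/RelA KD cells and 9.58 in control 1, a difference of −0.35 ± 0.07 (limma adjusted p = 0.0207). The effects of the knockdowns differed for IRF1 by 0.32, for NFYA by 0.20 and for PRDM1 by −0.46 (limma adjusted p = 0.0358, 0.0285 and 0.00579), where 2.45% of all clusters were called lower and 1.9% higher.

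Endosomal proteases changed in both directions. The list of 11 tested genes held proteases, the protease inhibitor CST3 and the compartment genes CD63 and LAMP1. In p52/RelB KD cells 3 of the 11 rose and 1 fell, where 3.93% of all clusters were called higher and 5.75% lower. The list median was 0.03. CTSB, cathepsin B, averaged 12.10 in p52/RelB KD cells and 11.69 in control 2, a difference of 0.41 ± 0.05 (limma adjusted p = 0.000169). CTSD and CTSC rose by 0.21 and 0.18, while LGMN, the asparagine endopeptidase, fell by 0.30 on the log2 scale (limma adjusted p = 0.00169). None of the 11 was called by limma in p50/RelA KD cells, where 0.825% of all clusters were called lower and 0.245% higher. An unadjusted p below 0.05 was reached there by 2 of the 11, CTSD and LGMN, and by 10.5% of all clusters. The effects differed between the knockdowns for CTSB by 0.37 and for LGMN by −0.39.

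Of the 5 genes of the interferon gamma receptor list, IFNGR2, a receptor chain, fell by 0.30 on the log2 scale in p52/RelB KD cells, and the kinases JAK1 and JAK2 rose by 0.19 and 0.20 (limma adjusted p = 0.00024, 0.00823 and 0.0491). Of all clusters, 5.75% were called lower and 3.93% higher in p52/RelB KD cells. None of the 5 was called in p50/RelA KD cells, where 0.825% of all clusters were called lower and 0.245% higher. The difference between the knockdowns was called for IFNGR2 and not for JAK1 or JAK2 (limma adjusted p = 0.00447, 0.352 and 0.440). CD83, which stabilizes class II at the surface, differed by 0.17 ± 0.06 in p52/RelB KD cells and by −0.22 ± 0.05 in p50/RelA KD cells (limma adjusted p = 0.111 and 0.0526). Neither passed alone, and the difference between them of 0.39 did (limma adjusted p = 0.00623).

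The genes of class I presentation, which loads peptides made in the cytosol, are set beside these. Of 15 genes tested 1 was called lower and 1 higher in p52/RelB KD cells, which is near the 5.75% and 3.93% of all clusters, and the median over 19 distinct clusters was −0.03, against −0.25 for the class II presentation genes. TAP1, a subunit of the peptide transporter, differed by −0.15 ± 0.04 and ERAP2, a trimming peptidase, by 0.21 ± 0.05 (limma adjusted p = 0.0192 and 0.0299). The p50/RelA KD counts were 1 of 15 lower and 0 higher, against 0.825% and 0.245% of all clusters, with a median of −0.10, against −0.01 for the class II presentation genes. TAP1 was again the gene called, at −0.27 ± 0.04 (limma adjusted p = 0.00897). TAP2, its partner, differed by −0.29 to −0.27 in p50/RelA KD cells without passing the test and by 0.01 to 0.05 in p52/RelB KD cells, and the difference between the knockdowns was called for 2 of its 3 clusters, at 0.32 and 0.34. HLA-B and HLA-C are not among the 15 genes, since each of their clusters listed several symbols. The lists were not tested against each other.

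**Figure D4:**
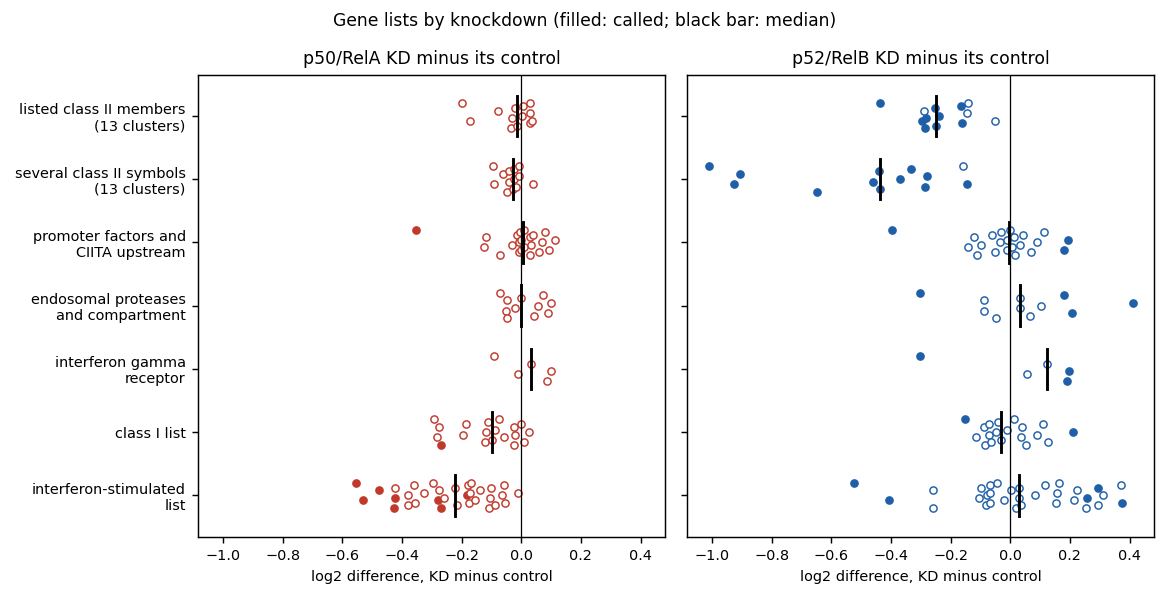
Log2 difference between knockdown and control for each distinct cluster of 7 gene lists, p50/RelA KD on the left and p52/RelB KD on the right; filled points passed the test and black bars are list medians. The p52/RelB KD medians are −0.25 for the listed class II presentation genes and −0.44 for clusters with several class II symbols, and the p50/RelA KD medians −0.01 and −0.03.

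Pearson correlations were taken over the 12 arrays of an experiment after each replicate's mean was removed. They gave the clusters most like the mean of the class II presentation genes. In the p52/RelB KD experiment these were RNPEP, PAX9, UPK1A, MFSD2A and CSF2RB, at r of 0.976 to 0.983. Their own differences ran from −0.09 for RNPEP to −0.89 for UPK1A. In the p50/RelA KD experiment they were SNORD46, CCNP, HMCN2, LCN1 and TMEM125, at r of 0.894 to 0.935, and none of these was called. With the same mean the class II clusters ran from 0.12 (CTSS) to 0.85 (HLA-DMA) in the p50/RelA KD experiment. In the p52/RelB KD experiment they ran from 0.10 (CIITA) to 0.99 (HLA-DMA). The clusters named for the p50/RelA KD experiment thus all lay closer to the mean than any class II cluster did. The arrays of an arm share their treatment, so these values describe likeness only.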

How the data were processed

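The authors deposited log2 expression values made by RMA, which corrects the background, quantile-normalizes arrays and summarizes probes per transcript cluster. Of RMA no version was stated. Array medians were 6.94 to 6.99 in experiment 1 and 7.39 to 7.51 in experiment 2, so the experiments were taken as normalized apart. Levels were tested only within each, and those given for both experiments are a description. Clusters were named from GEO's platform annotation, and symbols were updated through GRCh38.p14.

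Clusters with 1 symbol were tested unless below 6 in 50% or more of the 12 arrays, by limma 3.58.1 (R 4.3.3), blocking on the replicate. Arrays of the same replicate number deviated together (correlations of 0.195 to 0.574 between the knockdown and control means), so replicates were paired. A call needed a Benjamini-Hochberg adjusted p below 0.05 over all tested clusters and a difference of 10% (0.14 on the log2 scale), the thresholds of the study's methods. The stated errors rest on the 6 arrays of an arm, which came from 3 replicates, so the spread they measure is in part technical. The fit was tested on simulated data. Alternatives were the block, a further normalization, the filter, t-tests, replicates, sequences, 2 arrays that stood apart and the scan batch. Named were the member clusters, called genes of the pathway and class I lists, RFX and NF-Y subunits, the targets and the 5 most similar clusters of each experiment. Members and lists were chosen with earlier results of these data known.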

Additional observations from a re-analysis of the deposited data

Results flagged for a closer look

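The p52/RelB KD effect differed from the p50/RelA KD effect for HLA-DPB1 clusters 8118594, 8178220 and 8179519, by −0.31, −0.26 and −0.33, and for HLA-DQA1, by −0.36, in the direct limma test.

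A single array lay far from the other 5 of its arm in 9 of 52 sets of 6 values, where chance gives about 1 in 20; copies of a gene share signal and are not independent. HLA-DPA1 was low on the p52/RelB KD array of sequence 2 in replicate 3, at 11.60 and 11.72 in its 2 distinct clusters, with the nearest array at 11.89 and 11.96. This is the array that stood apart over all clusters. HLA-DMB was low on the p52/RelB KD array of sequence 1 in replicate 3, at 7.64 and 7.72, with the nearest at 7.77 and 7.84. HLA-DPB1 was high in 1 control 2 array at 10.90 (cluster 8118594) and low in another at 10.31 (8178220). In p50/RelA KD cells HLA-DPB1 was high in 1 array at 11.31 (8178220) and in another at 11.75 (8179519), and IFI30 was high in 1 array at 11.53.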

How the results depend on the processing

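Of 182 values per knockdown (13 distinct clusters under 14 alternatives), 169 kept their direction and their side of the threshold in p50/RelA KD cells and 152 in p52/RelB KD cells. In p52/RelB KD cells 23 calls were lost and 5 gained, and for the difference between knockdowns, of 169 values, 14 were lost and 3 gained. The number of class II presentation clusters called in p52/RelB KD cells was 9; leaving out a replicate it was 6 to 7, and with sequence 2 alone, 3 arrays a group, 0. The count for p50/RelA KD was 1 under the methods' t-test on replicate-adjusted values. The count for the difference was 4; it was 2 without any 1 replicate, 1 with the sequences averaged and 0 with sequence 2 alone. Without the replicate block these counts were 9, 0 and 4, and no call on a member changed, while over all clusters the calls lower fell to 530 in p52/RelB KD cells, 49 in p50/RelA KD cells and 147 for the difference, beside 926, 121 and 359 with it, and the calls higher to 350, 10 and 103, beside 633, 36 and 278. Over all clusters the methods' t-test on deposited values called 422 lower and 303 higher in p52/RelB KD cells and 27 and 3 in p50/RelA KD cells. Averaging the sequences gave 411 lower and 220 higher, 39 and 5, and 66 and 51 for the difference. Leaving out a replicate gave 291 to 1017 lower and 152 to 1030 higher in p52/RelB KD cells, 17 to 37 and 1 to 4 in p50/RelA KD cells, and 89 to 158 and 63 to 143 for the difference. Sequence 1 alone gave 603 lower, 32 lower and 5 higher, and 153 lower; sequence 2 alone gave 4 and 1, 3 and 0, and 1 and 2. Leaving out the p52/RelB KD array that stood apart gave 1156 higher, and 490 higher for the difference. In p50/RelA KD cells, calls higher numbered 86 after quantile normalization, 95 under the t-test on replicate-adjusted values and 81 without 1 control 1 array, and calls lower 79 with no filter. Of the distinct clusters with several class II symbols, 12 were called, and 7 to 10 without 1 replicate.

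Reversals were all of differences that were not called. CIITA in p52/RelB KD cells was 0.003 without replicate 2 and 0.0313 with sequence 2 alone. For the difference between knockdowns CIITA ran from −0.0854 to 0.01 leaving out a replicate, and was 0.0345 with sequence 2 alone, and IFI30 ran from −0.146 to 0.0125. In p50/RelA KD cells, leaving out a replicate, HLA-DMB ran from −0.0769 to 0.0114 and from −0.054 to 0.0237 in its copies, and HLA-DMA from −0.0455 to 0.0395 and from −0.0541 to 0.0383. HLA-DMA was −0.0061 and −0.0125 when the outlying control 1 array was dropped and −0.11 and −0.12 with sequence 2 alone. With sequence 2 alone HLA-DPA1 was −0.0035 and −0.0050, and HLA-DPB1 −0.0204 and −0.0049. The causes were not tested, apart from the smaller number of arrays in the fits by sequence and replicate.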

Other observations

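Interferon-stimulated genes, many of them antiviral, were counted in the same fits. In p50/RelA KD cells 8 of 32 tested fell and 0 rose, against 0.825% and 0.245% of all clusters, with a list median of −0.22, among them TRIM22 by 0.56 and OAS3 by 0.53 on the log2 scale. In p52/RelB KD cells 2 of 31 fell, IFIH1 and GBP2, and 3 rose, IFIT3, OAS3 and PARP9, against 5.75% called lower and 3.93% higher of all clusters, with a list median of 0.03. GBP2 had clusters at −0.41 and −0.26, and only the former was called (limma adjusted p = 0.0169 and 0.0548). The lists were not tested against each other.

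The rank of the class II clusters among all clusters of an array is given for both experiments, which were taken as normalized apart. The cluster shared by HLA-DRA and HLA-DQA1 (8178193) lay between percentiles 68.2 and 75.0 on p52/RelB KD arrays and between 80.4 and 85.6 on control 2 arrays, and between 96.0 and 96.6 on p50/RelA KD arrays and between 96.0 and 96.7 on control 1 arrays. HLA-DMB (8125530) lay between 53.5 and 56.6 on p52/RelB KD arrays and between 57.2 and 59.3 on control 2 arrays, and between 79.5 and 81.5 on p50/RelA KD arrays and between 79.4 and 82.1 on control 1 arrays. IFI30 lay between 93.9 and 95.9 on every array. The 2 control arms were not tested against each other, and no array batch held both experiments.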
